A study of Mus musculus with 10 samples.

Results

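The genes described here encode the respiratory chain, the set of protein complexes in the inner mitochondrial membrane that carries out oxidative phosphorylation. They were chosen by symbol among protein-coding genes. The rule took the 13 genes of the mitochondrial genome and the nuclear genes named Ndufa, Ndufb, Ndufc, Ndufs or Ndufv plus a digit, Sdha to Sdhd, Uqcr and Uqcc, Cox4 to Cox8, and Atp5. This gave 101 gene entries of 35501, of which 13 are mitochondrial and 88 nuclear. By complex, mitochondrial and nuclear genes number 7 and 37 for complex I, 1 and 11 for complex III, 3 and 18 for complex IV, and 2 and 18 for complex V. Complex II has 4 genes, all nuclear. The families follow their symbols, so complex III includes 3 Uqcc genes, which encode assembly factors, and complex I includes Ndufa4, whose protein is now counted as a subunit of complex IV.

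The libraries came from single oocytes at metaphase II, when the mature egg awaits fertilisation. Oocytes at the earlier germinal vesicle stage were taken from ovaries of ICR mice aged 6 to 8 weeks and matured in culture at 37 °C in 5% CO2 for 16 h. A group of 5 control libraries was compared with 5 libraries of oocytes that received 0.1 µg/mL of TubA for 16 h. The name is a common short form of tubastatin A, an inhibitor of the deacetylase HDAC6, which the labels do not spell out. Each cell was amplified by Smart-seq2, which copies polyadenylated RNA along its length. The question was which transcripts differ when oocytes mature with the agent. The labels name no animal or culture, so p-values reflect only how these libraries spread, part of which may be technical.

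Complex I takes electrons from NADH and complex II from succinate. Both pass them through ubiquinone to complex III, and cytochrome c carries them on to complex IV, which reduces oxygen. Complexes I, III and IV pump protons, and complex V, the ATP synthase, uses the gradient to make ATP. Complexes I, III, IV and V join subunits made from mitochondrial and from nuclear genes, so their assembly draws on both genomes. The mitochondrial genes are read as long transcripts of each strand that are cut at the tRNAs between them. Oocytes hold many mitochondria and live largely on pyruvate oxidised there.

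Values are in TPM, an abundance per transcript length with a common total in each library. The unit does not preserve sequencing depth, which is therefore unknown here, and counting intervals are not given. Each library had between 10521 and 11698 genes at 1 TPM or more. The 10 oocyte marker genes summed to between 24894 and 37603 TPM. Of 14 cumulus and granulosa cell markers, Foxl2 and Amh were listed at 0 in all libraries. The highest were Cyp19a1 at means of 10.52 TPM in control and 12.6 TPM with TubA, Kitl at 8.64 and 6.84 TPM and Nr5a2 at 6.49 and 5.14 TPM. The summed level of the list was 19.8 to 43.0 TPM in control against 19.4 to 39.4 TPM with TubA. The 9 theca and stroma markers summed to 3.26 to 17.4 and 4.29 to 13.1 TPM, and the 10 blood, immune and endothelial markers to 30.7 to 80.1 and 41.9 to 82.8 TPM.

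Some mitochondrial genes have near-identical copies in the nuclear genome, which bears on how their levels can be read. A block of such copies lies on chromosome 1 (chr1:24611535-24616197, GRCm38). The start of mt-Nd3 and an inner stretch of mt-Co1, where its copy begins, are shown against the copies, since they show how few bases tell the pairs apart. Capitals mark the bases that differ. The mt-Nd3 stretch is chrM:9459-9518 on the plus strand and that of its copy chr1:24613060-24613119 on the minus strand. The mt-Co1 stretch is chrM:6381-6440 on the plus strand and that of its copy chr1:24616138-24616197 on the minus strand.
mt-Nd3: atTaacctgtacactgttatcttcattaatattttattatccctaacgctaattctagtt
Gm28438: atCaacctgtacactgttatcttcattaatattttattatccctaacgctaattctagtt
mt-Co1: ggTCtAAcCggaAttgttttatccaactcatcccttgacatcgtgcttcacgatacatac
Gm29216: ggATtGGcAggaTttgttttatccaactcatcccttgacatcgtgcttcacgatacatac
Over its 345 aligned bases mt-Nd3 had 1 difference from its copy, T3C, counted from the first base of the gene. The 294 aligned bases of mt-Nd4l, the 876 of mt-Nd4, the 678 of mt-Atp6 and the 681 of mt-Co2 had 0 differences from theirs. The 492 aligned bases of mt-Co1 had 6. The levels of these 6 genes therefore depend on how the reads were divided between gene and copy. For mt-Cytb, mt-Nd1, mt-Nd2, mt-Nd5, mt-Nd6, mt-Co3 and mt-Atp8 there was no copy that shared at least 20% of their words of 31 bases.

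The mitochondrial genes gave most of the respiratory chain message. The 13 genes summed to 8212 to 16348 TPM in control against 6414 to 15078 TPM with TubA, and the 88 nuclear genes to 2493 to 6029 and 2838 to 5947 TPM. Of each library's summed respiratory chain TPM, the mitochondrial genes held between 57.7% (TubA replicate 4) and 86.8% (control replicate 1). By complex this share was 65.6% to 92.8% in complex I, with Ndufa4 among its nuclear genes by symbol. It was 63.0% to 86.1% in complex III, 49.0% to 82.8% in complex IV and 54.5% to 87.4% in complex V. The groups overlapped in both sums. With the nuclear copies added to their genes the mean share in complex V was 82.2% in control (70.3% without them) and 79.7% with TubA (68.6% without them). mt-Atp6, a subunit of the proton channel of the ATP synthase, was the most abundant of the 13 in all 10 libraries as listed. mt-Nd5 was the least abundant in 9 of them, and mt-Atp8 in control replicate 3.

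No respiratory chain gene passed the test between the groups. A limma fit of log2(TPM + 1) covered 11664 genes, and 1 of them (0.00857%) passed an adjusted p of 0.05, which is no member. Of the 101 entries, 88 had a mean of at least 1 TPM and were tested (13 mitochondrial, 75 nuclear). At an unadjusted p under 0.05, 8 members were lower with TubA, where 1.38% of all genes tested were, and 1 was higher, where 1.13% were. In 4 members all TubA libraries lay under all control libraries, which held for 0.266% of all genes, and in 0 members the reverse was seen, which held for 0.189%. The 4 are mt-Nd3, mt-Nd5 and the pair mt-Nd4l and mt-Nd4. All 4, and 6 of the 8 lower members, are mitochondrial genes, which are cut from shared transcripts and are not independent. The shares over all genes are therefore no measure of chance for counts of mitochondrial genes. The median log2 difference, TubA minus control, was -0.42 over the mitochondrial members (12 of 13 negative), -0.12 over the nuclear ones (43 of 75 negative) and 0.0097 over all genes (48.6% negative). Without TubA replicate 2 the nuclear median was 0.07, and without control replicate 4 it was 0.04.

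**Figure D1:**
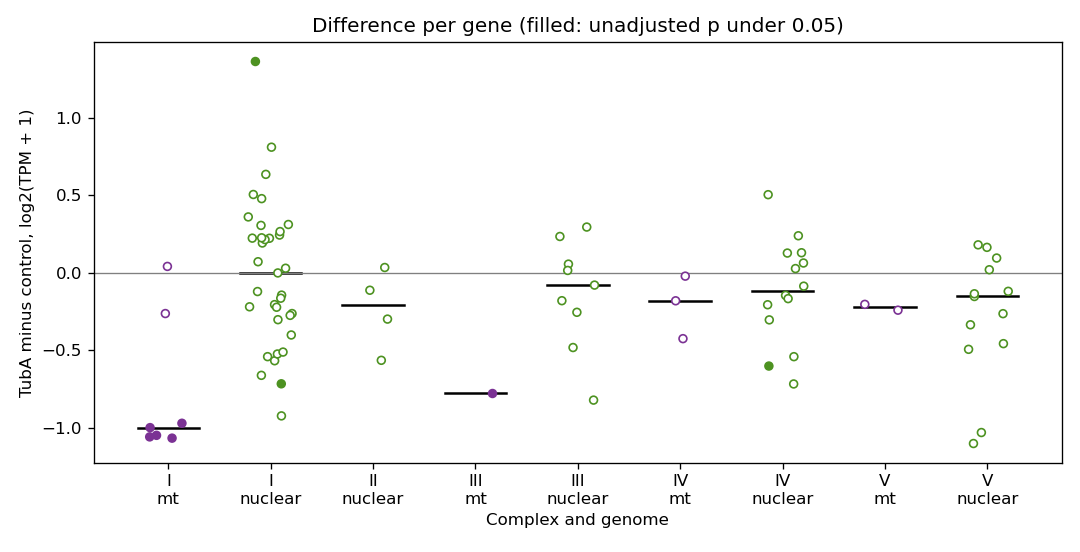
Difference between TubA and control means on the log2(TPM + 1) scale (y axis) for each of the 88 members tested, by complex and genome (x axis). Filled points have an unadjusted limma p under 0.05 and black lines are medians; 5 of the 7 mitochondrial genes of complex I lie near -1, while its 35 nuclear genes spread on both sides of 0 with a median of -0.00050.

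The 6 mitochondrial genes lower at an unadjusted p under 0.05 were 5 of the 7 complex I genes and the cytochrome b gene. mt-Nd3 (ENSMUSG00000064360, chrM:9459-9806), a membrane subunit of complex I, stood at 334, 315, 333, 285 and 218 TPM in control replicates 1 to 5, and TubA replicates 1 to 5 had 184, 149, 132, 104 and 145 TPM. The lowest control library, replicate 5, lay above the highest TubA library, replicate 1. The log2 difference was -1.06 with a standard error of 0.19 (95% interval -1.47 to -0.65, limma unadjusted p = 0.000109, adjusted p = 0.638). mt-Nd5 (ENSMUSG00000064367, chrM:11742-13565), which encodes the largest mitochondrially made subunit of complex I, stood at 101, 98.7, 87.1, 112 and 98.0 TPM in control. With TubA it stood at 36.2, 44.4, 64.2, 39.3 and 59.0 TPM. The control libraries lay close together and the groups did not overlap. The log2 difference of mt-Nd5 was -1.05 with a standard error of 0.20 (limma unadjusted p = 0.000174, adjusted p = 0.677).

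mt-Nd4 (chrM:10167-11544) and mt-Nd4l (chrM:9877-10173) encode neighbouring membrane subunits of complex I. mt-Nd4 stood at 721, 677, 487, 797 and 737 TPM in control and at 271, 259, 454, 342 and 439 TPM with TubA. Control replicate 3 was the lowest control library and lay close to TubA replicate 3. mt-Nd4l stood at 582, 665, 1495, 662 and 503 TPM in control and at 206, 425, 422, 333 and 486 TPM with TubA. Control replicate 3 was far above the others, and control replicate 5 and TubA replicate 5 nearly met. The log2 differences were -0.97 for mt-Nd4 (limma unadjusted p = 0.000459) and -0.999 for mt-Nd4l (limma unadjusted p = 0.00656), with an adjusted p of 0.99994 for each. The ends of the pair overlap by 7 bases.

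mt-Nd6 (chrM:13552-14070) is the complex I gene of the opposite strand, and its end overlaps that of mt-Nd5 by 14 bases. It stood at 243, 269, 114, 223 and 189 TPM in control and at 68.2, 75.4, 178, 85.0 and 97.4 TPM with TubA. Control replicate 3 and TubA replicate 3 crossed, while the other 4 libraries of each group did not overlap. mt-Cytb (chrM:14145-15288), the cytochrome b of complex III, stood at 2170.4, 1903, 1073, 2595 and 2039 TPM in control and at 874, 750.4, 1429, 1124 and 1516 TPM with TubA. Here control replicate 3 alone lay within the range of the TubA libraries. The log2 differences were -1.07 for mt-Nd6 (limma unadjusted p = 0.00329) and -0.77 for mt-Cytb (limma unadjusted p = 0.0111), with an adjusted p of 0.99994 for each. The strand of the reads is not given in the sources used here. Reads of RNA from the other strand therefore cannot be told from those of mt-Nd6. This holds along the whole gene as well as in its overlap with mt-Nd5.

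**Figure D2:**
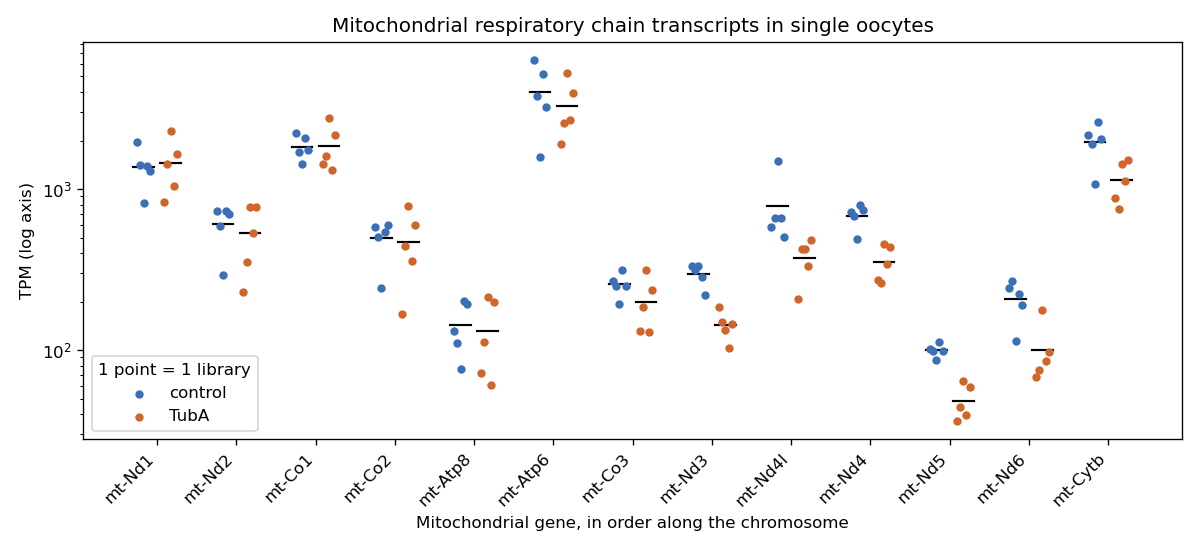
TPM on a log axis (y) of the 13 mitochondrial respiratory chain genes in their order along the chromosome (x), 1 point per library with the group mean as a line. The groups overlap from mt-Nd1 to mt-Co3, and they are fully apart in mt-Nd3, mt-Nd5, mt-Nd4l and mt-Nd4, with TubA lower.

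The other 7 mitochondrial genes did not reach an unadjusted p under 0.05 (limma). mt-Nd1, a complex I subunit at the first position, stood at 1957, 1404, 817, 1385 and 1291 TPM in control and at 834, 1429, 2279, 1039 and 1644 TPM with TubA. TubA replicate 3 was the highest of the 10 libraries, and control replicate 3 and TubA replicate 1 were the lowest. Its log2 difference was 0.04 (95% interval -0.57 to 0.66), and that of mt-Nd2, the next complex I gene, -0.26 (-1.05 to 0.52). The catalytic core of complex IV showed -0.02 for mt-Co1, -0.18 for mt-Co2 and -0.42 for mt-Co3 (limma unadjusted p = 0.117). The ATP synthase genes showed -0.20 for mt-Atp8 and -0.24 for mt-Atp6, which overlap by 43 bases. Signs depended on the libraries used. mt-Nd2 had 0.0055 and mt-Co2 0.15 without TubA replicate 1, and mt-Atp8 had 0.03 without TubA replicate 4. That of mt-Nd1 was -0.13 without control replicate 3, -0.14 without TubA replicate 3 and -0.03 without TubA replicate 5. That of mt-Co1 changed sign in 5 of the 10 fits that each left out a library.

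Values were also compared within each library. They were divided by the mt-Nd1 value of the same library, a denominator chosen with the group differences known. Relative to mt-Nd1, mt-Nd5 stood at 5.18% to 10.7% in control and at 2.82% to 4.34% with TubA. mt-Nd6 stood at 12.4% to 19.2% and at 5.28% to 8.18%, so the crossing of replicate 3 seen in TPM was absent from the ratio. mt-Nd4 stood at 36.8% to 59.6% and at 18.2% to 32.9%. mt-Cytb stood at 111% to 187% and at 52.5% to 108%. In these 4 genes the TubA ratios all lay under the control ratios, which held for 0.189% of all genes tested when divided in the same way. Nearly all of those genes are nuclear and need not vary with mt-Nd1, so this share is no like background for mitochondrial genes. Of the 13, mt-Nd1 was also the only gene with a positive log2 difference, so dividing by it lowers the other differences. The ratios of mt-Nd3 and mt-Nd4l overlapped between groups, at 16.9% to 40.7% and 5.81% to 22.1% for mt-Nd3 and at 29.7% to 183% and 18.5% to 32.1% for mt-Nd4l. TubA replicate 1 was the library of mt-Nd3 inside the control range. All ratios of mt-Nd2, mt-Co1, mt-Co2, mt-Atp8, mt-Atp6 and mt-Co3 overlapped.

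**Figure D3:**
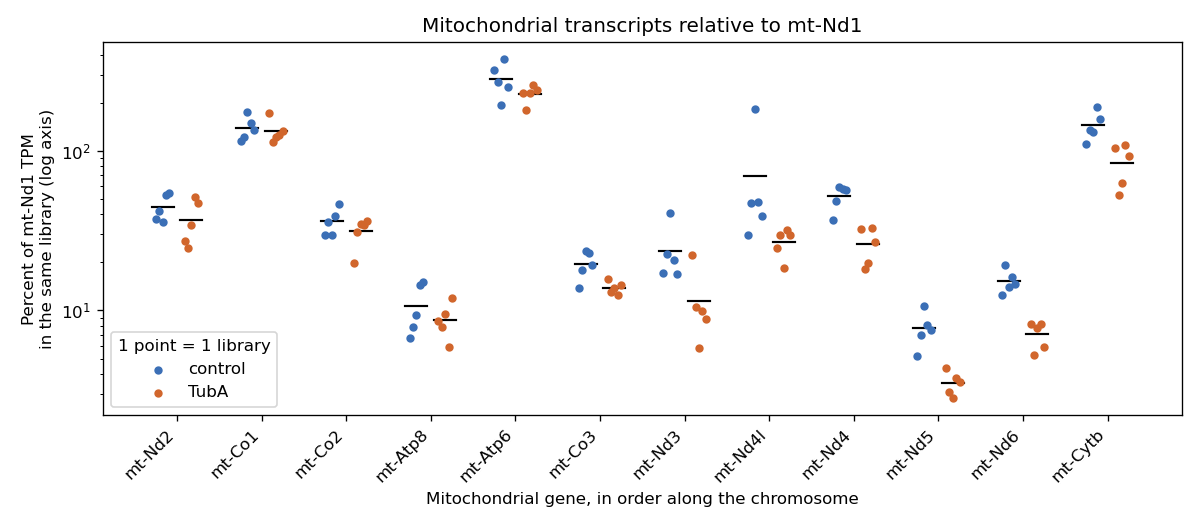
TPM of each mitochondrial gene as a percent of mt-Nd1 in the same library (y, log axis), in order along the chromosome (x), 1 point per library with the group mean as a line. The groups separate in mt-Nd4, mt-Nd5, mt-Nd6 and mt-Cytb, for instance 5.18% to 10.7% in control against 2.82% to 4.34% with TubA for mt-Nd5.

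Adding the nuclear copies left the non-overlapping genes apart. With its copy, mt-Nd3 stood at 227 to 349.6 TPM in control against 106 to 188 TPM with TubA. mt-Nd4 with its copy, itself listed at a mean of 275 TPM, stood at 908 to 1182 and at 398 to 727 TPM. mt-Nd4l with its copy stood at 503 to 1495 and at 333 to 486 TPM. The copy of mt-Nd4l was listed above 0 only in TubA replicate 1. There the gene stood at 206 TPM alone and at 411 TPM with the copy. The log2 differences were then -1.07 for mt-Nd3, -0.94 for mt-Nd4 and -0.80 for mt-Nd4l. Unlike these 3, mt-Nd5 and mt-Nd6 have no such copy.

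Clustering of these same values, cut at 2 sets, divided the libraries into sets A and B. The cut gives 2 sets whatever the values, and the labels name no such sets. Both sets hold libraries of each group. Set A holds control replicates 1 to 3 and TubA replicates 1 and 2, and set B the rest. The log2 difference within set A and within set B was -0.98 and -0.98 for mt-Nd3, -1.23 and -0.97 for mt-Nd5, and -1.22 and -0.91 for mt-Nd4. It was -1.49 and -0.50 for mt-Nd4l, -1.43 and -0.85 for mt-Nd6, and -1.02 and -0.77 for mt-Cytb. The set A value of mt-Nd4l leaves out its copy and includes TubA replicate 1, at 206 TPM against 411 TPM with the copy. mt-Nd1 had -0.26 and 0.23. The lowest p among members for a dependence of the TubA difference on the set was 0.0831, for Atp5k (limma, adjusted p = 1). With 2 or 3 libraries of each group per set, a dependence could easily be missed.

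Nuclear complex I genes held no common direction. Of 35 tested, 18 were negative and 17 positive. Ndufc1 (chr3:51404677-51408988), an accessory membrane subunit, was the 1 member higher at an unadjusted p under 0.05. It stood at 0.534, 2.62, 0.632, 7.57 and 0 TPM in control and at 2.78, 4.94, 4.20, 10.4 and 5.61 TPM with TubA. Control replicate 4 lay above all TubA libraries but replicate 4, so the groups overlapped (log2 difference 1.36, limma unadjusted p = 0.0254). Ndufa13, also known as GRIM-19, stood at 2.55 ± 1.09 and 1.14 ± 0.627 TPM (mean ± SD over 5 libraries, with control before TubA from here on). Its log2 difference was -0.72 (limma unadjusted p = 0.0433). With the overlapping kinase gene Tssk6 of the opposite strand added, the log2 difference of Ndufa13 was -0.56. Ndufs4, an assembly-stabilising subunit of the NADH-oxidising module, stood at 34.9 ± 10.9 and 48.5 ± 6.96 TPM (log2 difference 0.51). Further genes of small p were Ndufa8 with a log2 difference of 0.64, Ndufb8 with 0.81 and Ndufb6 with -0.54. These and the other nuclear genes given with a difference are the 12 of smallest p, picked on that p, and each had an adjusted p of 0.99994 (limma).

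Among the nuclear genes placed in complex I by symbol, Ndufa4 was far above the rest at 303 TPM. That is 38.3% of the summed level of this group, although its protein is now counted in complex IV. Ndufb5 came next at 59.9 TPM.

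Complex II, succinate dehydrogenase, was uneven among its 4 genes. Sdha, the flavoprotein, had a mean of 105 TPM over all libraries, and Sdhd, a membrane anchor, 66.9 TPM. Sdhc, the other anchor, had 13.1 TPM and Sdhb, the iron-sulphur subunit, 2.85 TPM. Sdhc stood at 15.7 ± 7.14 and 10.4 ± 4.88 TPM, a log2 difference of -0.56 (limma unadjusted p = 0.136). The summed level of complex II was 144 to 267 TPM in control against 159.7 to 213 TPM with TubA, so the groups overlapped.

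Among the nuclear genes of complex III, the core gene Uqcrc2 was the most abundant at 354 TPM, followed by the assembly factor gene Uqcc1 at 33.8 TPM. The 9 nuclear genes tested had a median log2 difference of -0.08 and 5 were negative. Among those of complex IV, Cox6a1 at 377 TPM and Cox6c at 318 TPM led, and the 14 tested had a median of -0.12 with 8 negative. Cox7b (chrX:106015700-106022450), a small structural subunit, stood at 31.9, 49.2, 35.1, 44.4 and 39.7 TPM in control and at 26.0, 20.5, 34.2, 37.2 and 16.6 TPM with TubA. TubA replicates 3 and 4 lay above the lowest control library (log2 difference -0.60, limma unadjusted p = 0.0324). Cox5b stood at 4.94 ± 1.54 and 7.72 ± 3.82 TPM (log2 difference 0.50).

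In complex V, Atp5b, the catalytic beta subunit, was the most abundant nuclear gene of all at 891 TPM, and Atp5mpl, a small membrane subunit, followed at 172 TPM. The 13 nuclear genes tested had a median log2 difference of -0.15 and 9 were negative. Atp5k, a subunit at which pairs of the enzyme meet, stood at 6.69 ± 3.85 and 3.33 ± 3.34 TPM, a log2 difference of -1.03 (limma unadjusted p = 0.0630). Atp5e, the epsilon subunit of the central stalk, stood at 47.1 ± 33.9 and 23.6 ± 32.4 TPM (log2 difference -1.10). Atp5g3, a gene for the c subunit of the rotor, stood at 5.37 ± 2.22 and 3.37 ± 0.808 TPM (log2 difference -0.49). Summed over complexes, the log2 ratio of TubA to control was -0.34 for the mitochondrial and -0.08 for the nuclear genes, and both sums overlapped between groups.

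Several subunits of complexes IV and V are made from alternative genes that other tissues use differently. Cox6b2, the testis-type gene of a subunit that joins the monomers of complex IV, was higher than the widely used Cox6b1 in 10 of 10 libraries. Cox6b2 stood at 76.2, 123, 87.8, 144 and 161 TPM in control and at 107, 106, 182, 109.6 and 133 TPM with TubA. Cox6b1 stood at 1.48, 19.3, 12.5, 18.4 and 16.8 TPM and at 9.52, 5.77, 10.6, 15.5 and 7.41 TPM. The testis-type gene thus held 86.5% to 98.1% of the pair, highest in control replicate 1, with the groups overlapping. Elsewhere the widely used form was the higher. Cox4i1 ranged from 5.48 to 80.0 TPM with a median of 9.42 TPM, against 0 to 6.65 TPM for the lung-type Cox4i2. Cox6a1 ranged from 73.6 to 573 TPM against 0.265 to 10.998 TPM for the muscle-type Cox6a2. Cox8a ranged from 174 to 365 TPM, while the muscle-type Cox8b was listed at 0 in all libraries and the testis-type Cox8c was above 0 in 5.

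The muscle-type Cox7a1 was above 0 in 1 library, while Cox7a2 had a median of 106 TPM and the related Cox7a2l, which helps join complexes III and IV, 44.2 TPM. Cox7a2 was the higher of these in 10 libraries. The testis-type Cox7b2 was above 0 in 1 library and Ndufa4l2, a form known from cells short of oxygen, in 2. The 3 genes for the same c subunit of ATP synthase were nearer to each other. Atp5g1 had a median of 8.33 TPM, Atp5g2 of 9.17 TPM and Atp5g3 of 3.86 TPM. Atp5g2 was the highest in 6 libraries and Atp5g1 in 4, so their order is not fixed. Atp5g2 has copies listed at a summed mean of 23.7 TPM, above its own 11.2 TPM, so its level is uncertain.

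**Figure D4:**
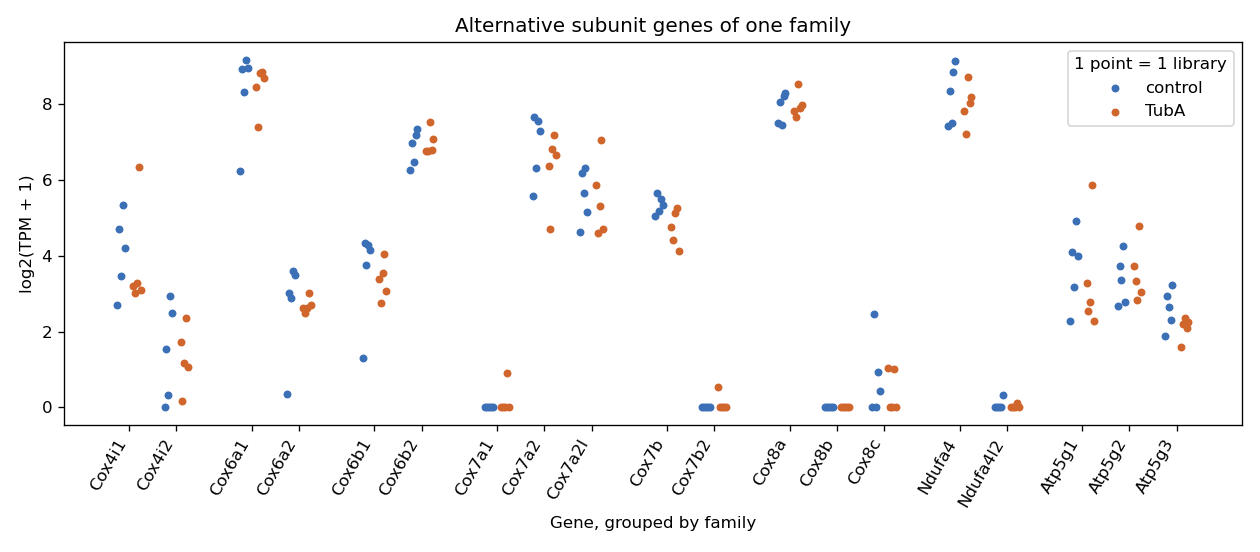
Level as log2(TPM + 1) (y) of the alternative genes of 8 subunit families (x), 1 point per library. Cox6b2 lies above Cox6b1 in every library, whereas Cox4i1, Cox6a1, Cox7a2, Cox8a and Ndufa4 lie above their tissue-type relatives.

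The nuclear genes spread widely between libraries. The standard deviation of log2(TPM + 1) over the 10 libraries had a median of 0.81 over the 75 nuclear members tested. It was 0.53 over 4828 genes of like level and 0.51 over all genes. Those 4828 lie between the quartiles of the members' levels, while the 0.81 covers members at all levels. Transcript length was not matched. Of the 75, 24 exceeded 1 and 17 were below 0.5. The steadiest were Atp5b (0.16), Uqcrc2 (0.17), Sdha (0.27) and Atp5c1 (0.28). The most variable were the small complex III subunits Uqcr11 (1.81) and Uqcrq (1.65), the complex I subunit Ndufa3 (1.68) and Atp5e (1.66). The most abundant listed transcripts of these last 4 had 445, 405, 515 and 421 bases. Those of Atp5b, Uqcrc2, Sdha and Atp5c1 had 1916, 606, 2900 and 1166 bases. The part of transcript length and counting error in the spread was not tested. Uqcr11 stood at 0, 39.3, 16.0, 55.0 and 41.2 TPM in control and at 23.1, 3.72, 30.02, 40.5 and 29.9 TPM with TubA. Control replicate 1 and TubA replicate 2 were low. By contrast, Atp5b stood at 702, 926, 919, 935 and 946 TPM in control and at 995, 767, 826, 979 and 917 TPM with TubA. The same 2 libraries were the lowest for Atp5b, but by far less.

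This variation followed the library. The median deviation of the 75 nuclear genes from their own means was -0.78, 0.28, -0.22, 0.77 and 0.35 in control replicates 1 to 5 and -0.12, -0.62, -0.04, 0.97 and -0.15 in TubA replicates 1 to 5. The highest and the lowest library thus belonged to different groups. In TubA replicate 4, 34 of the 75 genes had their highest value, and in control replicate 1, 34 had their lowest. In control replicate 1, 6 genes lay above their own mean, against 64 in TubA replicate 4 and 69 in control replicate 4. The same deviation over all genes tested lay between -0.18 and 0.15. The median deviation of the 13 mitochondrial genes was 0.55, 0.20, -0.34, 0.53 and 0.41 in control and -0.80, -0.38, 0.53, -0.49 and 0.11 with TubA. It had the sign of the nuclear median in 6 of 10 libraries and the opposite sign in control replicate 1 and in TubA replicates 3, 4 and 5. Zp2, an egg coat gene, stood at 93.1, 2706, 1482, 3256 and 2239.6 TPM in control and at 3125, 206, 427, 4518 and 1456 TPM with TubA. It was lowest where the nuclear median was lowest and highest where that was highest, but not in the same order between. Genes at 1 TPM or more numbered 10521, 11440, 11677, 11404 and 11392 in control and 11471, 10714, 10838, 11698 and 11115 with TubA. Control replicate 3 had the second highest number with a nuclear median below 0. The part of the egg coat genes and of the number of genes found in this variation was not tested.

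**Figure D5:**
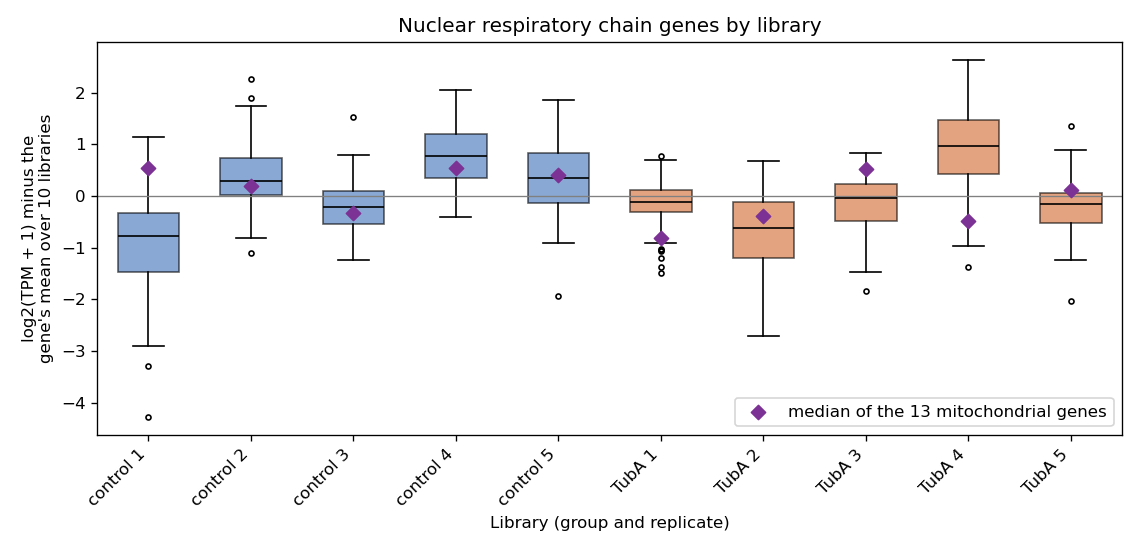
Deviation of the 75 nuclear members from their own mean over 10 libraries, log2(TPM + 1) (y), by library (x). Boxes show quartiles with the median, whiskers reach 1.5 times the box, and diamonds give the median of the 13 mitochondrial genes; control replicate 1 lies lowest at -0.78 and TubA replicate 4 highest at 0.97.

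Promoters of nuclear respiratory genes are known for sites of the factors NRF1, GABP (an ETS factor) and YY1. RefSeq promoters (GRCm38.p6, from 250 bases before to 50 after the start) matched 71 nuclear members among 27025 genes, and letters were searched on both strands. The NRF1 core GCGCATGC was in 14.1% of member promoters and 3.05% of all. The YY1 motif AAGATGGC was in 15.5% and 3.19%. The GABP motif CCGGAAGT was in 7.04% and 4.31%, and the shorter ETS core CCGGAA, which it contains, in 35.2% and 16.7%. CCAAT was in 45.1% and 41.1%, and the GC box GGGCGG in 43.7% and 38.2%. The 10 members with the NRF1 core were Atp5g2, Atp5k, Atp5l, Cox6a1, Ndufa6, Ndufa8, Ndufa11, Sdhb, Uqcr11 and Uqcrc1.

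The 150 bases upstream of the start are printed for the pair of Cox6b genes, for Cox6a1 as the most abundant nuclear complex IV gene, and for Uqcr11 and Atp5b as the most and least variable members. Each window ends before the first base annotated by either RefSeq or GENCODE. Capitals mark the motifs searched. The windows are chr7:30626152-30626301 (minus strand) for Cox6b1, chr7:4753095-4753244 (minus) for Cox6b2, chr5:115348982-115349131 (minus) for Cox6a1, chr10:80406831-80406980 (minus) for Uqcr11 and chr10:128083123-128083272 (plus) for Atp5b.
Cox6b1: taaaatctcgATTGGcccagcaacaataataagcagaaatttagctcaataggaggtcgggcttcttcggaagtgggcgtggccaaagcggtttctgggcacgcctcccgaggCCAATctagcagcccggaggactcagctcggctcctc
Cox6b2: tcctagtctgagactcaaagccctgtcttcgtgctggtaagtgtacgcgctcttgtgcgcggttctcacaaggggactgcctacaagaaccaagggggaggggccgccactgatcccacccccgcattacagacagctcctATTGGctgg
Cox6a1: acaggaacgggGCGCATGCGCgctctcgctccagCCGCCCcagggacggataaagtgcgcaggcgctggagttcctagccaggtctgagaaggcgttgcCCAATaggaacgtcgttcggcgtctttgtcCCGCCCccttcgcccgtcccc
Uqcr11: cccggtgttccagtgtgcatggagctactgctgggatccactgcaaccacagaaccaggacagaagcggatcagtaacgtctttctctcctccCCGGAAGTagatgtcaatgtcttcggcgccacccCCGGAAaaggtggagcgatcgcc
Atp5b: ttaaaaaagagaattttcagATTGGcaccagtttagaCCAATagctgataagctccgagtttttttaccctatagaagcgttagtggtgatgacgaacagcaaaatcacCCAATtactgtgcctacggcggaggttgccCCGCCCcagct
Within these windows, Cox6a1 holds the NRF1 core on both strands as a palindrome and Uqcr11 the GABP motif. Both Cox6b genes hold CCAAT on at least 1 strand. The shares above come from the longer promoters, so some sites counted there lie outside the windows. Examples are the NRF1 core of Uqcr11 and the GC box of Cox6b2. All are matches of letters and say nothing of binding in oocytes.

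Part of the message of some abundant nuclear genes was listed under transcripts not annotated as coding. For Uqcrc2, 78.5% of the mean TPM fell on a retained-intron transcript of 606 bases and 21.4% on coding transcripts. Coding transcripts held 12.4% for Ndufs4, 26.9% for Cox7b, 36.9% for Uqcc1 and 38.1% for Atp5b. For Cox7b, 69.5% fell on a processed transcript of 180 bases. The levels above are sums over all transcripts of a gene, so they are not levels of coding message for these genes.

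Of the entries, 13 had a mean under 1 TPM and were not tested. They are Ndufa4l2, Ndufb4, Uqcc2, Uqcc3, Cox7a1, Cox7b2, Cox8b, Cox8c, Atp5d, Atp5j, Atp5j2, Atp5s and a read-through entry of Atp5o (chr16:91684398-91926982). Cox8b and that entry were listed at 0 in all libraries. Of the 88 nuclear entries, 48 reached a mean of 10 TPM and 13 reached 100 TPM.

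Other genes of the pathway were also short of the threshold. Of 99 genes in 9 lists covering assembly factors, mobile electron carriers, supercomplex factors, expression of the mitochondrial genome and regulators, 83 were tested and 0 passed (limma). At an unadjusted p under 0.05, 0 were lower and 1 was higher. That gene was Mgme1, an exonuclease of mitochondrial DNA upkeep, at 2.44 ± 1.57 and 4.71 ± 1.03 TPM, a log2 difference of 0.83 (limma unadjusted p = 0.0260). Polg2, the accessory subunit of the mitochondrial DNA polymerase, stood at 2.21 ± 1.38 and 0.904 ± 0.672 TPM. The 15 tested genes of mitochondrial genome expression had a median log2 difference of -0.02, with 8 negative.

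Among 13 complex I assembly genes tested, 4 were negative and the median was 0.25. Nubpl, which delivers iron-sulphur clusters, stood at 9.35 ± 3.50 and 5.91 ± 3.03 TPM, and the methyltransferase gene Ndufaf7 at 38.9 ± 4.63 and 48.5 ± 7.73 TPM. The 4 complex II assembly genes had a median of 0.09, with Sdhaf1 at 1.41 ± 0.597 and 0.852 ± 0.371 TPM and Sdhaf2 at 4.55 ± 3.68 and 5.65 ± 2.47 TPM. For complex III, 2 genes were tested, Lyrm7 at 1.27 ± 0.877 and 2.76 ± 2.48 TPM and Ttc19 at 7.98 ± 4.41 and 9.88 ± 5.35 TPM. The 19 complex IV assembly genes had a median of 0.12 with 6 negative. The copper protein gene Cox19 stood at 2.72 ± 1.305 and 1.42 ± 1.07 TPM and Coa7 at 4.22 ± 2.15 and 2.42 ± 1.003 TPM. The 5 complex V genes had a median of -0.07, with Tmem70 at 71.7 ± 21.2 and 91.0 ± 37.4 TPM and Atpaf2 at 9.39 ± 4.85 and 6.35 ± 1.92 TPM.

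The 15 tested genes of mobile carriers and electron entry had a median of 0.05. Coq3 and Coq8a, which serve ubiquinone synthesis, stood at 3.97 ± 1.59 and 5.53 ± 1.46 TPM and at 1.12 ± 0.584 and 2.17 ± 1.15 TPM. Among regulators, 7 were tested, with a median of -0.16. The coactivator gene Ppargc1b stood at 9.47 ± 2.87 and 6.77 ± 1.76 TPM, and Gabpb1, a subunit of GABP, at 57.0 ± 13.6 and 69.6 ± 19.1 TPM. The 3 supercomplex genes tested include the member Cox7a2l. Higd1a stood at 7.24 ± 2.29 and 6.09 ± 4.80 TPM and Higd2a at 75.6 ± 33.6 and 75.5 ± 19.4 TPM. None of these genes passed the test over all genes (limma adjusted p = 0.99994 for each).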

How the data were processed

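The authors deposited 1 table per oocyte library with a TPM value for each Ensembl transcript. The unit was taken from the sums, which are 1000000 in each library. The submitters' processing notes name the build mm10 and Bowtie 0.12.2. Not given in the sources used here are the program that estimated abundance, its annotation and its strand setting. Transcripts were summed to genes with GENCODE M21 of GRCm38, the assembly of mm10: 113492 matched and 1778, with 0.531% to 0.753% of each library's TPM, did not and were left out. No 2 files held identical values.

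All 10 libraries entered a limma fit (version 3.58.1, under R 4.3.3) of log2(TPM + 1) with trend and robust moderation. Genes whose mean reached 1 TPM were tested, with Benjamini-Hochberg adjustment at 0.05 over all of them and no covariates. Differences on this scale understate the change of low genes. The script was tested on simulated data in which genes varied independently, so that test does not cover genes that move together. Python 3.11.15, pandas 2.3.3, numpy 2.4.6 and matplotlib 3.10.9 did the rest. A copy is another gene that shares at least 20% of a member's words of 31 bases. Genes of like level are those whose mean log2(TPM + 1) lies between the quartiles of the nuclear members tested.

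The members and lists were chosen with earlier results of these data known. Named with a test are the 13 mitochondrial genes, any nuclear member past the threshold and the 12 of smallest p. Named by level are the 2 most abundant nuclear genes of each complex, complex II and 8 paralogue families, and of each pathway list the 2 of smallest p. Others named were chosen after their values were seen. Alternatives were other pseudocounts, filters and scalings, copies added, library weights, the replicate number as a block, the library sets, and each library left out. Results that need 1 of the members by name are not reported here.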

Additional observations from a re-analysis of the deposited data

Results flagged for a closer look

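In 16 of 120 groups of 5 libraries examined, 1 value of a member lay far from the other 4 by Dixon's test. Its nominal rate of about 1 in 20 groups holds for independent, normally spread values. Genes here moved together by library, and in some groups all other values were 0. The count therefore cannot be set against that rate. TubA replicate 4 was the high library in 8 of the 16 groups. It had 81.2 TPM of Atp5e (the other TubA libraries 4.54 to 14.4), 57.2 TPM of Atp5g1 (3.88 to 8.65), 80.0 TPM of Cox4i1 (7.08 to 8.73) and 217.5 TPM of Ndufb5 (22.1 to 56.1). It also had 34.7 TPM of Ndufb8 (16.2 to 20.8) and 10.2 TPM of Sdhb (0.823 to 2.22), as well as 0.871 TPM of Cox7a1 and 0.0801 TPM of Ndufa4l2, both listed at 0 in the other TubA libraries.

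TubA replicate 1 had 103 TPM of Sdhd (42.1 to 55.7 in the others) and 0.447 TPM of Cox7b2 (0 in the others). TubA replicate 3 had 178 TPM of mt-Nd6 (68.2 to 97.4). Among control libraries, replicate 3 was high for mt-Nd4l at 1495 TPM (503 to 665) and low for mt-Co2 at 244 TPM (501 to 597). Control replicate 1 was low for Atp5b at 702 TPM (919 to 946). Control replicate 2 had 4.51 TPM of Cox8c (0 to 0.898), and control replicate 5 had 0.245 TPM of Ndufa4l2 (0 in the others).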

How the results depend on the processing

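In all 22 alternatives 0 members passed (limma, lowest adjusted p = 0.204, for mt-Nd4 with the library set as a term). The count over all genes was 0 with a mean of at least 5 TPM, 0 with the replicate block, 12 in library set A and 0 in set B, and 1 when each library was left out. Members lower at an unadjusted p under 0.05 numbered 14 with library weights, where 328 of all 11664 genes tested were lower against 161 without weights. They numbered 6 to 12 when leaving out each library, where 110 to 248 of all genes were lower. Those higher then numbered 0 to 4. The median of the mitochondrial members ranged from -0.82 to -0.30 and that of the nuclear ones from -0.45 to 0.07. Of 546 values of 25 named members 531 kept their direction and side of the threshold and 15 changed sign. Those 15 were all in mitochondrial genes without a group difference at an unadjusted p under 0.05. The alternatives reuse the same libraries, and the 12 nuclear genes among the 25 were picked on small p. Kept directions are therefore no independent check. The log2 difference of mt-Nd1 was -0.0141 with the set as a term and -0.26 in set A, and that of mt-Co1 0.0523 with library weights and 0.0676 in set B. Leaving out each library gave -0.14 to 0.22 for mt-Nd1, -0.18 to 0.0924 for mt-Co1, -0.51 to 0.0055 for mt-Nd2, -0.42 to 0.15 for mt-Co2 and -0.42 to 0.0261 for mt-Atp8. The cause of these changes was not tested. mt-Nd3, mt-Nd4, mt-Nd5, mt-Nd6 and mt-Cytb were lower at an unadjusted p under 0.05 in all 22, and mt-Nd4l in 21.

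The labels do not say whether the replicate numbers pair the samples, and the values showed no clear pairing. Deviations of same-numbered libraries correlated at 0.00308, -0.00484, -0.308, 0.476 and 0.258, and 2 of 5 control libraries correlated best with their own number. With the replicate block, 0 members passed, 7 were lower and 2 higher at an unadjusted p under 0.05, as were 173 and 140 of all 11664 genes tested. TPM without depth does not show how much of the spread in low genes is counting error.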

Other observations

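Some partners of the respiratory chain were as abundant as its nuclear subunits (chosen after their values were seen). Etfa, a subunit of the flavoprotein that brings electrons from fatty acid oxidation to ubiquinone, had a mean of 453 TPM (SD 108) in control and of 464 TPM (SD 86.7) under TubA over 5 libraries each. Sdhaf4, an assembly factor of complex II, stood at 255 ± 60.8 and 274 ± 97.1 TPM, above the mean of each of the 4 complex II genes. Cox10, which makes a haem of complex IV, stood at 223 ± 35.9 and 232 ± 25.7 TPM. Dhodh, which feeds electrons to ubiquinone from pyrimidine synthesis, stood at 108 ± 13.6 and 104 ± 11.8 TPM. In each of these 4 the difference between groups was smaller than the spread between libraries.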
